A study of Mus musculus with 15 samples.

Results

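The integrated stress response and amino acid supply genes described here are 36 mouse genes of 51912 in the expression table, chosen by name because they belong to the ATF4 pathway, to amino acid transport or to serine and one-carbon synthesis. The choice was made with earlier results of these data known, so counts set beside the share of all genes are description and not a test of the set. All 36 were found in the table and all 36 passed the filter on low counts, so each was tested among 15692 genes. The study cultured wild-type mouse B cells for 6 days with 100 ng/ml IL-4 on 40LB cells, a fibroblast feeder line engineered to give B cells CD40 ligand and BAFF, and asked how IgE plasma cells differ from those of other isotypes. Day 6 libraries came from the whole culture, taken unsorted at the end of the feeder phase. The other cells were lifted off the feeders, kept 2 days more in RPMI with no stimulus and sorted on day 8 into 4 groups: IgE iGC, IgG1 iGC, IgE plasma cells (PC) and IgG1 PC, where iGC stands for the germinal-centre-like B cells that such a culture induces. All 5 groups share the wild-type genotype and the feeder and IL-4 phase, and each holds 3 biological replicates. The labels do not say how isotype or plasma cell state was gated, nor whether same-numbered libraries share an animal. All of it is a culture outside the animal, and RNA was measured from pools of cells, so fewer cells of a type and less RNA per cell cannot be told apart.

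In the integrated stress response, kinases that sense unfolded protein in the endoplasmic reticulum, lack of amino acids, lack of haem or double-stranded RNA phosphorylate the translation initiation factor eIF2. Most translation then slows, while the mRNA of the transcription factor ATF4 is translated more. ATF4 pairs with C/EBP family partners and switches on genes that bring amino acids into the cell, make serine, glycine, proline and asparagine, charge tRNA and feed one-carbon units to folate, together with feedback genes that end the response. Plasma cells, which secrete antibody in bulk, have a large demand for amino acids and for protein folding.

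The libraries held 17740900 to 54068000 expected counts each. Levels below are CPM, counts scaled by the TMM-corrected size of each library, which serve to compare 1 gene between libraries but not 2 genes with each other. A gene is said to be called where its edgeR quasi-likelihood p, adjusted by Benjamini-Hochberg over all 15692 genes, is under 0.05. The labels named no batch. Summed plasma cell marker levels ran from 19140 to 21529 CPM in IgE PC, from 10724 to 16058 CPM in IgG1 PC and from 664 to 1192 CPM in the other groups, so both PC groups stood above the rest by these markers. Summed B cell markers ran from 9242 to 9617 CPM in iGC, from 3771 to 3977 CPM in IgE PC, from 5023 to 5244 CPM in IgG1 PC and from 4689 to 4967 CPM at day 6; in IgG1 PC they were thus under iGC but over day 6, and the mean of Cd79a there, 1670.5 CPM, lay between the 1655 and 1714 CPM of IgE iGC and IgG1 iGC. The PC groups differed in both sums, and the part of this in the results was not tested. The 8 fibroblast markers, which feeder RNA would carry, summed to 242 to 368 CPM at day 6, 40.4 to 78.6 CPM in iGC, 24.4 to 38.2 CPM in IgE PC and, in IgG1 PC, 198 CPM in replicate 1, 75.6 CPM in replicate 2 and 198.8 CPM in replicate 3. T cell markers summed to at most 14.7 CPM and myeloid markers to at most 8.6 CPM in any library, with Cd3e at 0 in 4 groups, Cd8a and Fcgr1 at 0 in 3 and Csf1r at 0 in IgE PC. Lck, which is also found in B cells, made up most of the T cell sum, at 11.4 to 14.6 CPM in IgE iGC. No other T cell marker passed 0.455 CPM in any library.

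In IgE PC this gene set took up 0.805, 0.822 and 0.849% of all counts in the 3 libraries, against 0.400, 0.370 and 0.413% in IgG1 PC, 0.282, 0.283 and 0.287% in IgE iGC, 0.262, 0.260 and 0.262% in IgG1 iGC and 0.367, 0.378 and 0.379% at day 6. The 3 IgE PC libraries lay far above the other 12. Of the 36 genes, 30 had their highest group mean in IgE PC. The exceptions were Atf3, Ddit4, Shmt1, Mthfd1l and Nupr1, highest at day 6, and Slc38a1, highest in IgE iGC. The lowest mean was in IgG1 iGC for 19 genes.

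**Figure D1:**
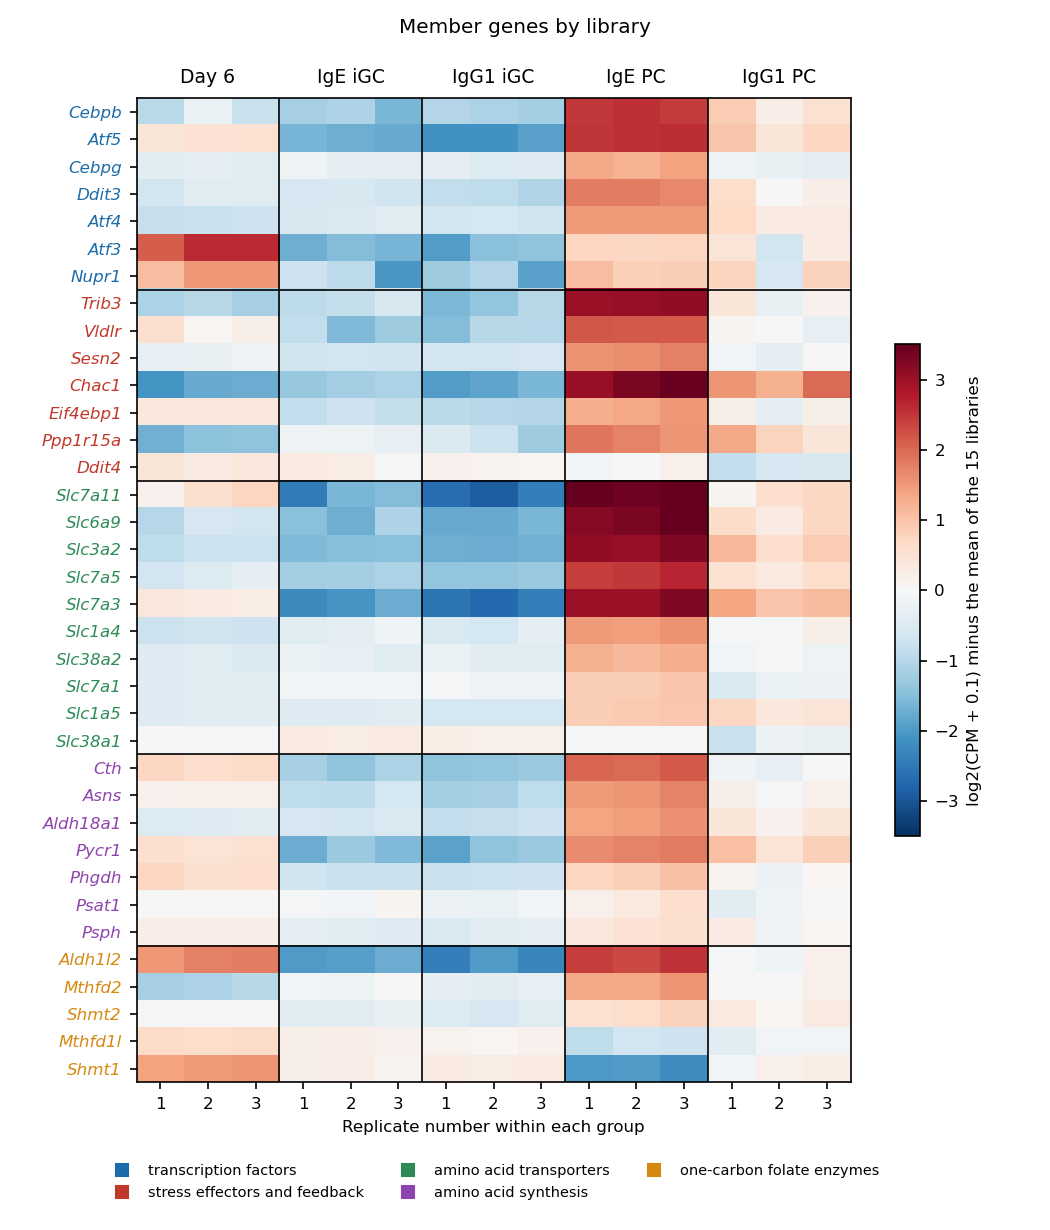
Level of each of the 36 genes in each of the 15 libraries, as log2(CPM + 0.1) minus the gene's mean over the 15 libraries. Columns are libraries in groups of 3 replicates and rows are genes coloured by role. The 3 IgE PC columns are the warmest for most rows, and Shmt1 and Mthfd1l are the coldest rows there.

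Between the 2 kinds of plasma cell, 33 of the 36 genes were higher in IgE PC than in IgG1 PC and 2 were lower. Over all genes tested, 27.4% were called higher and 30.7% lower. A difference of at least 2-fold in favour of IgE PC was found for 23 of the 36, against 3.83% of all genes tested, and 1 of the 36 was at least 2-fold lower, against 14.0% of all. The median log2 fold change was 1.34 for the 36 genes and -0.05 for all genes tested. The 2 lower genes were the folate enzymes Shmt1 and Mthfd1l, and Nupr1, a small stress-induced chromatin protein, was the gene not called.

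**Figure D2:**
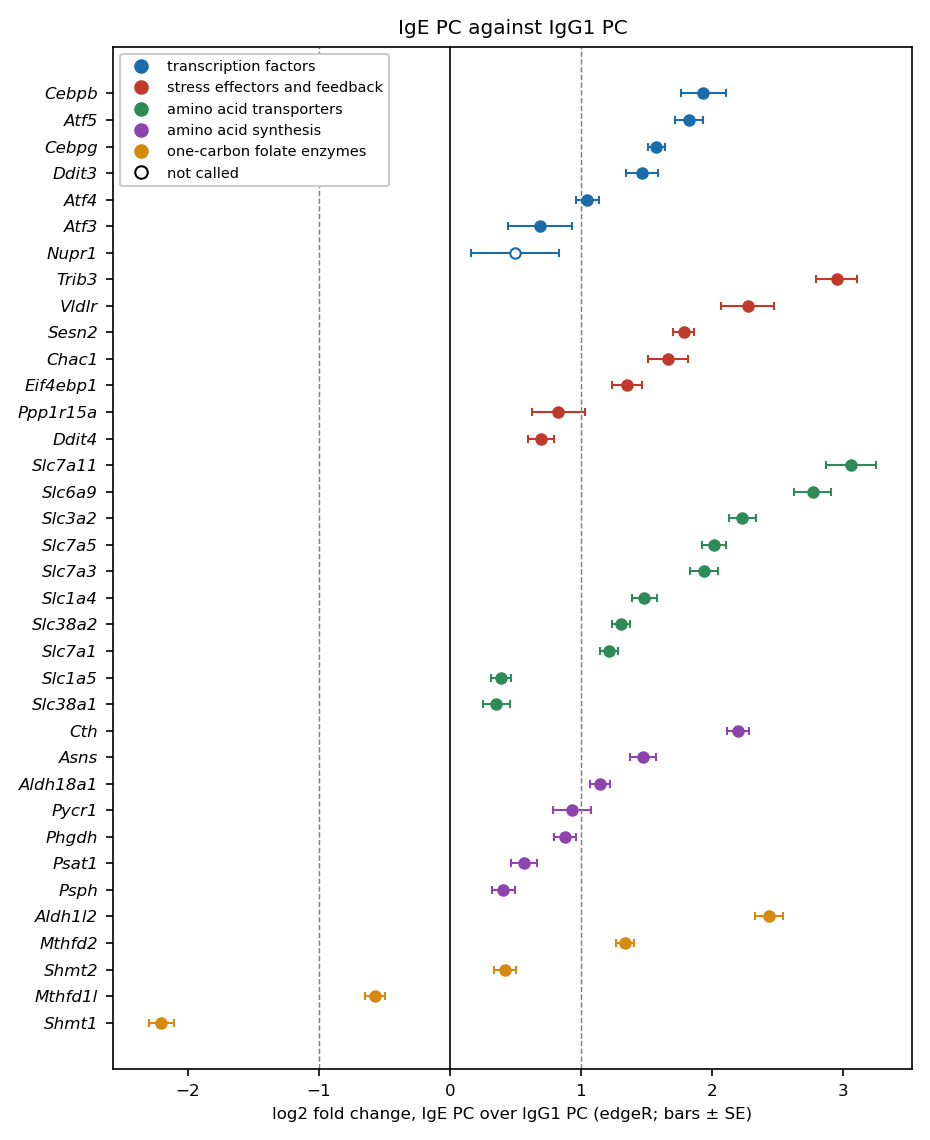
Log2 fold change of each of the 36 genes in IgE PC over IgG1 PC from edgeR, with bars of ± 1 SE, coloured by role; dashed lines mark 2-fold and the open point was not called. Slc7a11 and Trib3 lie at the right end, at 3.06 and 2.95, and Shmt1 at the left end, at -2.20.

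The promoters of 6 of these genes hold the core of the C/EBP-ATF response element, the site bound by ATF4 with a C/EBP partner, and were called higher in IgE PC, so their sequences are shown before the values. The RefSeq promoter table used here matched 29 of the 36 genes, with 35 transcription start sites in mouse build GRCm38.p6. The motif searched was TGATGNAA on either strand in the 250 bases before each start. It occurred before 7 of the 35 starts (20%), those of Atf3, Chac1, Asns, Slc7a11, Pycr1, Nupr1 and 1 of the 2 starts of Vldlr, and before 3.45% of all 32851 starts in the table. Each window below is 80 bases, read 5′ to 3′ on the gene's strand, with the match in capitals; TTGCATCA and the like are the same core read on the other strand. Slc7a11 holds 2 matches in opposite directions, with the nearer beginning 47 bases before the start, and the Asns match begins 23 bases before its start.
Slc7a11, chr3:50443617-50443696, minus strand: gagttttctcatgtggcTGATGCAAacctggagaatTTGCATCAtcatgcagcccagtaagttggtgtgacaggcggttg
Asns, chr6:7693210-7693289, minus strand: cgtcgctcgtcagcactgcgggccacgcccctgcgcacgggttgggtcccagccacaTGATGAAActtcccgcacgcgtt
Chac1, chr2:119351013-119351092, plus strand: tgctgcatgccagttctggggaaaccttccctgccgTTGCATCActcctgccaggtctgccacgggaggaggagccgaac
Pycr1, chr11:120643808-120643887, minus strand: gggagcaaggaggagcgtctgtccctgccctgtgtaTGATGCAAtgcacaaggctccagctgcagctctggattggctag
Atf3, chr1:191183400-191183479, minus strand: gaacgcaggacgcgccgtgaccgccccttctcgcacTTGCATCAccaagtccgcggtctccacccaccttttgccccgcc
Vldlr, chr19:27216784-27216863, plus strand: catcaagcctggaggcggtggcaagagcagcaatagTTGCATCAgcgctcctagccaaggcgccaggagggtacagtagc
A second motif, the antioxidant response element core TGACNNNGC bound by NRF2 with small MAF proteins, occurred before 7 of the 35 starts as well (20%) and before 10.2% of all starts, in Asns, Sesn2, Slc6a9, Slc7a1, Slc38a2 and Phgdh. Matches of the 2 motifs occurred together in Asns, at separate places. A match is a run of letters and not a measured binding site.

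Among the transcription factors, 6 of 7 were higher in IgE PC than in IgG1 PC and none was lower, with a median log2 fold change of 1.47. Atf4, the central activator of the response, was at 896, 889 and 887 CPM in the 3 IgE PC libraries and at 517, 384 and 391 CPM in IgG1 PC, where replicate 1 stood above the other 2. Its iGC libraries ran from 195 to 236 CPM and its day 6 libraries from 182 to 192 CPM. The groups did not overlap, and the log2 difference was 1.05 ± 0.09, given as here ± SE throughout. Each SE rests on 1 spread per gene shared by the 5 groups, but replicates differed most in IgG1 PC. Chi-square per degree of freedom between pairs of replicates was 29.4 to 98.5 there and 4.48 to 24.5 in the other groups. For Atf4 the SD was 74.9 CPM in IgG1 PC and 4.65 CPM in IgE PC. Atf5, a related factor that is also controlled at translation and supports the survival of secretory cells, reached 1006, 1043 and 1059.7 CPM in IgE PC against 345, 237 and 296 CPM in IgG1 PC, with 40.2 to 56.9 CPM in iGC and 238 to 254 CPM at day 6. The difference between the PC groups was 1.83 ± 0.10 on the log2 scale. Ddit3 encodes CHOP, the factor tied to cell death under lasting stress. It was at 98.2, 98.4 and 90.4 CPM in IgE PC, at 43.6, 27.8 and 33.1 CPM in IgG1 PC and at 13.6 to 19.1 CPM in iGC, a log2 difference of 1.47 ± 0.12 between the PC groups.

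Of the C/EBP members, which serve as ATF4 partners, Cebpb was at 33.6, 35.6 and 33.05 CPM in IgE PC against 11.2, 7.04 and 8.72 CPM in IgG1 PC, with 1.91 to 2.92 CPM in iGC. Its log2 difference was 1.93 ± 0.17. Cebpg was at 162, 149.5 and 170.05 CPM in IgE PC, but its 57.2, 53.7 and 50.8 CPM in IgG1 PC lay close to the 46.7 to 58.4 CPM of the iGC libraries, and the log2 difference between PC groups was 1.58 ± 0.07. For these 5 factors the adjusted p lay between 1.77e-10 and 2.14e-07 (edgeR). Atf3, an ATF4 target that acts as a repressor, was low in every sorted group, at 3.11, 3.03 and 3.07 CPM in IgE PC, at 2.48, 1.10 and 2.22 CPM in IgG1 PC and at 0.392 to 0.608 CPM in iGC, and at 8.17, 11.3 and 11.5 CPM at day 6. The PC difference of 0.69 ± 0.24 had an adjusted p of 0.0242 (edgeR), which became 0.0786 with a log2 difference of 0.39 without IgG1 PC replicate 2 and 0.0555 without IgE PC replicate 1. Nupr1 was at 5.28, 4.42 and 4.50 CPM in IgE PC against 4.23, 1.58 and 4.34 CPM in IgG1 PC, with replicate 2 the lowest, a log2 difference of 0.50 ± 0.34 and an adjusted p of 0.217 (edgeR). The fibroblast markers were also lowest in that library among IgG1 PC; their part in the Atf3 and Nupr1 levels was not tested.

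All 7 effector and feedback genes were higher in IgE PC, 5 of them at least 2-fold, with a median log2 fold change of 1.67. Trib3, a pseudokinase that binds ATF4 and CHOP and restrains them, was at 131, 135 and 141 CPM in IgE PC, at 21.5, 13.4 and 18.05 CPM in IgG1 PC and at 5.32 to 11.003 CPM in iGC. Its log2 difference of 2.95 ± 0.16 was the largest of the effectors. Chac1, which breaks down glutathione, was at 85.4, 102 and 114 CPM and 29.8, 24.5 and 40.4 CPM in the 2 PC groups and at 2.57 to 4.65 CPM in iGC, so both kinds of PC were far above iGC, and the log2 difference between them was 1.67 ± 0.15. Sesn2 encodes a leucine sensor that holds back mTORC1. It was at 267, 279 and 308 CPM in IgE PC, while the 84.8, 71.6 and 91.7 CPM of IgG1 PC lay near the 74.7 to 83.7 CPM of day 6, giving a log2 difference of 1.79 ± 0.08. Vldlr, a lipoprotein receptor induced through ATF4, was at 8.13, 7.93 and 7.91 CPM against 1.85, 1.72 and 1.40 CPM, a log2 difference of 2.27 ± 0.20, and stayed under 1 CPM in iGC. Eif4ebp1, which blocks cap-dependent translation, was at 83.4, 88.2 and 98.8 CPM in IgE PC against 39.4, 26.9 and 39.98 CPM in IgG1 PC, with a log2 difference of 1.35 ± 0.11. In these 5 genes the PC groups did not overlap, and the adjusted p lay between 2.85e-10 and 3.74e-07 (edgeR).

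Ppp1r15a encodes GADD34, the subunit that directs a phosphatase to eIF2 and so ends the response. Its level varied more among replicates, at 315, 286 and 251 CPM in IgE PC against 218, 148 and 115 CPM in IgG1 PC, with replicate 1 highest in each. The groups did not overlap and the log2 difference was 0.83 ± 0.20, adjusted p = 0.00334 (edgeR). Ddit4, an inhibitor of mTORC1 also known as REDD1, ranged from 90.3 to 109 CPM in IgE PC, against 53.1 to 64.7 CPM in IgG1 PC, a log2 difference of 0.70 ± 0.10, but its iGC and day 6 libraries, at 92.1 to 120.2 and 117 to 129 CPM, were as high as IgE PC or higher.

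**Figure D3:**
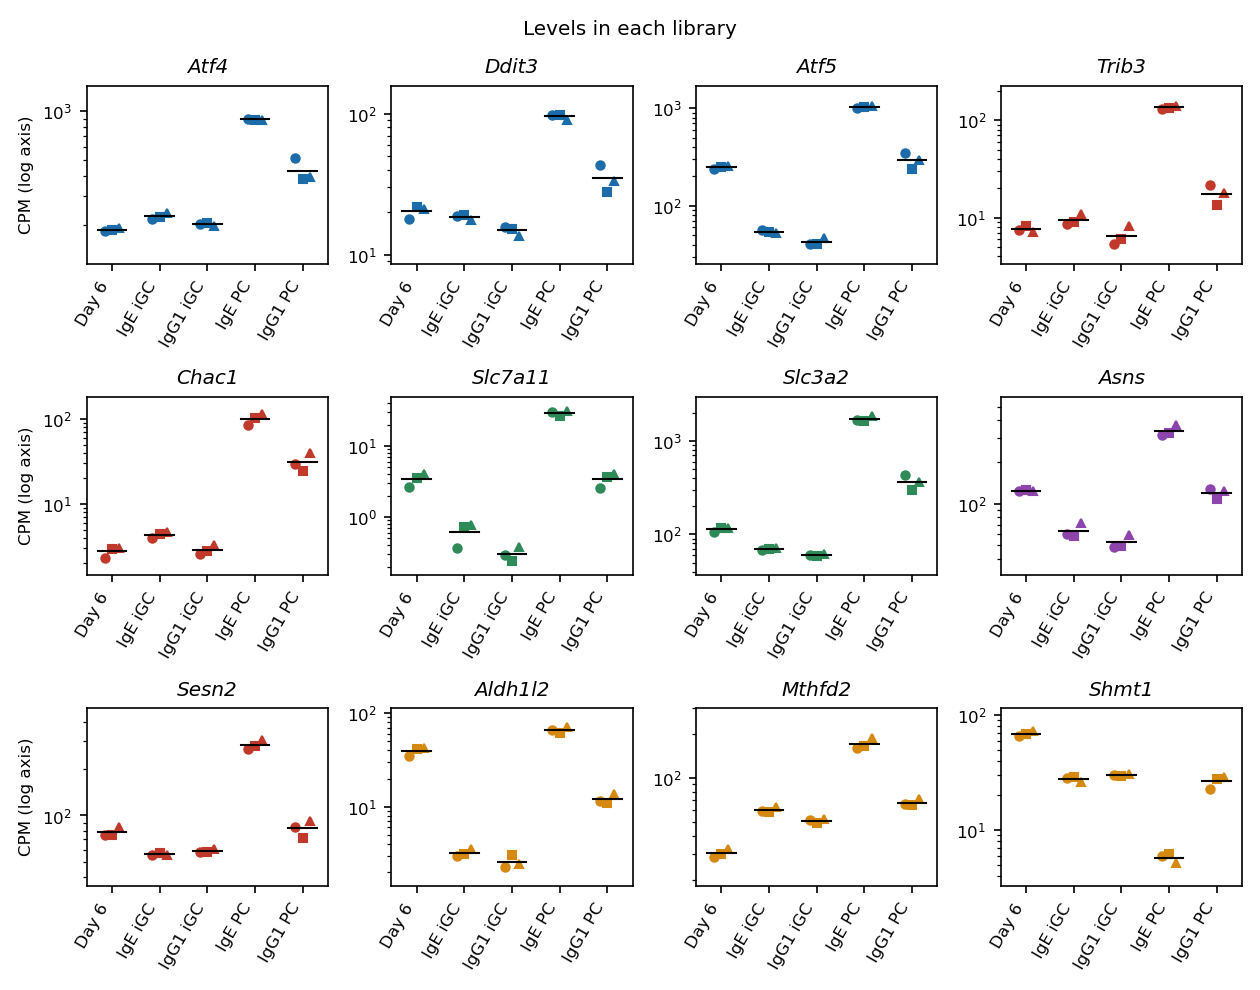
CPM on a log axis in every library for 12 of the 36 genes, with symbols for replicates 1 (circle), 2 (square) and 3 (triangle) and a line at the group mean. IgE PC is above every other group in 11 panels, and in the Shmt1 panel it is the lowest group, at 5.19 to 6.16 CPM.

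The 10 amino acid transporters were all higher in IgE PC than in IgG1 PC, 8 of them at least 2-fold, and their median log2 fold change was 1.71. Slc3a2 encodes CD98, the heavy chain that carries several light-chain transporters to the cell surface. It was at 1678, 1632 and 1836 CPM in IgE PC, at 435, 297 and 363 CPM in IgG1 PC and at 58.5 to 71.1 CPM in iGC. Its partner Slc7a5 (LAT1), which imports leucine and other large neutral amino acids, was at 1066, 1114 and 1265 CPM, 289, 255 and 307 CPM and 76.9 to 92.9 CPM in the same groups. The log2 differences between PC groups were 2.23 ± 0.10 for Slc3a2 and 2.02 ± 0.09 for Slc7a5. Slc7a11, another partner of CD98 that takes up cystine in exchange for glutamate and feeds glutathione synthesis, had the largest difference of the 36 genes, 3.06 ± 0.19. It was at 30.01, 26.7 and 30.9 CPM in IgE PC against 2.59, 3.69 and 4.08 CPM in IgG1 PC, and the iGC libraries held only 9 to 26 counts each, or 0.242 to 0.775 CPM. Its promoter is the one printed above with 2 opposed matches. In the same 250 bases no match was found for Trib3 or Slc6a9, which had the next largest differences, while Pycr1, Atf3 and the uncalled Nupr1 held 1 each. Trib3 did hold a match in a 300-base window around its start. The bases after that listed start were not found in a transcript of Trib3, so its place is uncertain. A relation between matches and the size of a difference was not tested.

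Slc6a9, the glycine transporter GLYT1, was at 114, 123 and 142 CPM in IgE PC against 19.6, 15.2 and 20.9 CPM in IgG1 PC, a log2 difference of 2.77 ± 0.14. The 2 carriers of arginine and lysine differed in pattern. Slc7a3 (CAT3) was at 131, 132 and 151 CPM in IgE PC, at 42.02, 31.4 and 34.6 CPM in IgG1 PC and at 2.34 to 4.70 CPM in iGC, so it was high in both kinds of PC. Slc7a1 (CAT1) was at 372, 375 and 404 CPM in IgE PC, but its 144, 174 and 178 CPM in IgG1 PC lay under the 187 to 196 CPM of iGC. The PC differences were 1.94 ± 0.11 and 1.21 ± 0.07 on the log2 scale.

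Among carriers of small neutral amino acids, Slc38a2 (SNAT2), which takes up alanine, serine and glutamine and is induced when amino acids are short, was at 606, 563 and 624 CPM in IgE PC against 241, 256 and 228 CPM in IgG1 PC, a log2 difference of 1.30 ± 0.07. Slc1a4 (ASCT1), an alanine, serine and cysteine exchanger, was at 34.4, 33.8 and 36.7 CPM and 11.6, 11.7 and 14.1 CPM, a difference of 1.49 ± 0.09. The glutamine carriers Slc1a5 (ASCT2) and Slc38a1 (SNAT1) differed least. Slc1a5 was at 669, 702 and 714 CPM in IgE PC against 612, 476 and 505 CPM in IgG1 PC, with a log2 difference of 0.39 ± 0.08. Slc38a1 was at 263 to 273 CPM in IgE PC against 161 to 239 CPM in IgG1 PC, with replicate 1 the lowest; its log2 difference of 0.35 ± 0.10 became 0.20 without that replicate. For the 8 transporters past 2-fold the largest adjusted p was 5.63e-09, and it was 4.09e-04 for Slc1a5 and 0.0084 for Slc38a1 (edgeR). With scaling to total counts, Slc1a5 (0.14) and Slc38a1 (0.09) kept their direction but were no longer called.

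The 7 genes of amino acid synthesis were all higher in IgE PC than in IgG1 PC, 3 of them at least 2-fold, with a median log2 fold change of 0.93. Cth, which makes cysteine from cystathionine, was at 82.8, 79.6 and 89.6 CPM in IgE PC, at 18.5, 16.4 and 20.03 CPM in IgG1 PC and at 7.55 to 9.35 CPM in iGC, a log2 difference of 2.20 ± 0.09 between PC groups. Asns, asparagine synthetase, was at 311, 322 and 368 CPM in IgE PC, while its 128, 108 and 124 CPM in IgG1 PC overlapped the 123 to 125 CPM of day 6; the log2 difference was 1.47 ± 0.10. In proline synthesis, Aldh18a1 was at 346, 360.03 and 396 CPM in IgE PC against 176, 145 and 176 CPM in IgG1 PC, and Pycr1, the last enzyme of the route, at 53.2, 55.96 and 58.9 CPM and 35.1, 23.3 and 30.03 CPM. Their log2 differences were 1.15 ± 0.07 and 0.93 ± 0.14.

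The route from glycolysis to serine differed less. Phgdh, its first enzyme, was at 485, 513 and 582 CPM in IgE PC against 310.2, 250.1 and 300.4 CPM in IgG1 PC, a log2 difference of 0.88 ± 0.08, and the day 6 libraries, at 483, 426 and 433 CPM, came up to the lowest IgE PC library. Its counts were fractional in all 15 libraries, so part of its reads was shared by estimate with near-identical copies and its level is uncertain to that extent. Psat1 and Psph, the next enzymes, ranged from 138 to 182 and from 29.9 to 34.1 CPM in IgE PC, against 91.9 to 119 and 21.04 to 27.9 CPM in IgG1 PC. Their log2 differences were 0.56 ± 0.10 and 0.41 ± 0.09. Adjusted p for the 7 synthesis genes lay between 1.25e-10 and 0.00112 (edgeR), but Psat1 was not called on the TPM scale (0.32) nor Psph with total-count scaling (0.16).

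The 5 one-carbon folate enzymes split by direction. Higher in IgE PC were 3 enzymes that work in mitochondria. Aldh1l2, which turns formyl-folate into carbon dioxide and NADPH, was at 65.5, 60.8 and 70.9 CPM in IgE PC, at 11.6, 11.1 and 13.7 CPM in IgG1 PC and at 2.26 to 3.56 CPM in iGC, a log2 difference of 2.44 ± 0.11. Mthfd2, the mitochondrial dehydrogenase and cyclohydrolase, was at 160.3, 165 and 188 CPM and 65.8, 65.1 and 71.8 CPM, a difference of 1.34 ± 0.07. Shmt2, which splits serine into glycine and a one-carbon unit, was at 283, 303 and 347 CPM and 248, 206 and 243 CPM, a difference of 0.42 ± 0.08 that was not called with total-count scaling (0.17). Lower were Shmt1, the cytosolic form of the same serine enzyme, and Mthfd1l, the mitochondrial formyl-folate synthetase. Shmt1 was at 5.95, 6.16 and 5.19 CPM in IgE PC against 22.8, 27.8 and 29.1 CPM in IgG1 PC, with 26.2 to 30.5 CPM in iGC and 65.1 to 71.98 CPM at day 6, and its log2 difference was -2.20 ± 0.09. Mthfd1l ranged from 30.4 to 35.02 CPM in IgE PC, against 42.5 to 52.5 CPM in IgG1 PC, a difference of -0.57 ± 0.07. The IgE PC libraries were thus above the other 12 for Aldh1l2, Mthfd2 and Shmt2 and below them for Shmt1 and Mthfd1l; the largest adjusted p of the 5 was 4.01e-04 (edgeR).

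Levels per transcript length, as TPM, show how much of each transcript there was. In IgE PC the mean TPM was 508 ± 17.96 (SD, n = 3) for Atf4, 1079.6 ± 21.3 (SD, n = 3) for Slc3a2 and 559 ± 12.1 (SD, n = 3) for Atf5. Slc7a5 was at 318 ± 19.1 (SD, n = 3) and Slc7a11 at 4.06 ± 0.140 (SD, n = 3) TPM, so of these 2 light chains of CD98, LAT1 was the more abundant transcript there. By the same measure mitochondrial Shmt2, at 154 ± 10.6 (SD, n = 3) TPM, stood above cytosolic Shmt1, at 2.60 ± 0.414 (SD, n = 3) TPM.

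The isotypes were also compared before plasma cell formation. Between IgE iGC and IgG1 iGC none of the 36 genes was called by edgeR, where 3.87% of all genes tested were called in either direction, and the median log2 fold change was 0.17 for the 36 genes and 0.01 for all. At an unadjusted p under 0.05 there were 12, each higher in IgE iGC, where 7.81% of all genes tested were: Atf5, Ddit3, Trib3, Chac1, Asns, Slc7a11, Slc7a3, Slc1a5, Mthfd2, Aldh18a1, Cebpg and Ppp1r15a. Atf5 was at 56.9, 54.01 and 52.3 CPM in IgE iGC and 40.2, 40.2 and 46.8 CPM in IgG1 iGC, with no overlap, a log2 difference of 0.36 ± 0.11 and an adjusted p of 0.0758 (edgeR). Mthfd2 was at 59.3, 57.7 and 62.97 CPM and 51.03, 49.1 and 52.4 CPM, a difference of 0.24 ± 0.07 with an adjusted p of 0.0752 (edgeR). The number called here depended on the fit: DESeq2 called 6, where it called 3.68% of all genes higher, and edgeR on the 6 iGC libraries alone called 9, where it called 5.48% of all higher, and all of these were higher in IgE iGC.

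The step from iGC to PC was then followed in each isotype. In IgE cells 32 of 36 genes were higher in PC than in iGC, where 30.5% of all genes tested were called higher, and 3 were lower, where 33.6% of all were. A rise of at least 2-fold was found for 30 of the 36, against 13.7% of all genes. In IgG1 cells 29 were higher, where 30.1% of all genes tested were called higher, and 4 were lower, where 29.0% were; 22 rose at least 2-fold, against 14.1% of all. The median log2 fold change of the 36 genes was 2.13 in IgE and 1.16 in IgG1 cells, and that of all genes -0.08 and 0.01. Slc7a11 (5.63 ± 0.24 in IgE, 3.52 ± 0.28 in IgG1) and Slc7a3 (5.17 ± 0.13 and 3.76 ± 0.13) had the 2 largest rises in each isotype, on the log2 scale. Next came Slc6a9 (4.78 ± 0.16), Slc3a2 (4.63 ± 0.12) and Chac1 (4.54 ± 0.18) in IgE cells and Chac1 (3.45 ± 0.18) in IgG1 cells.

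**Figure D4:**
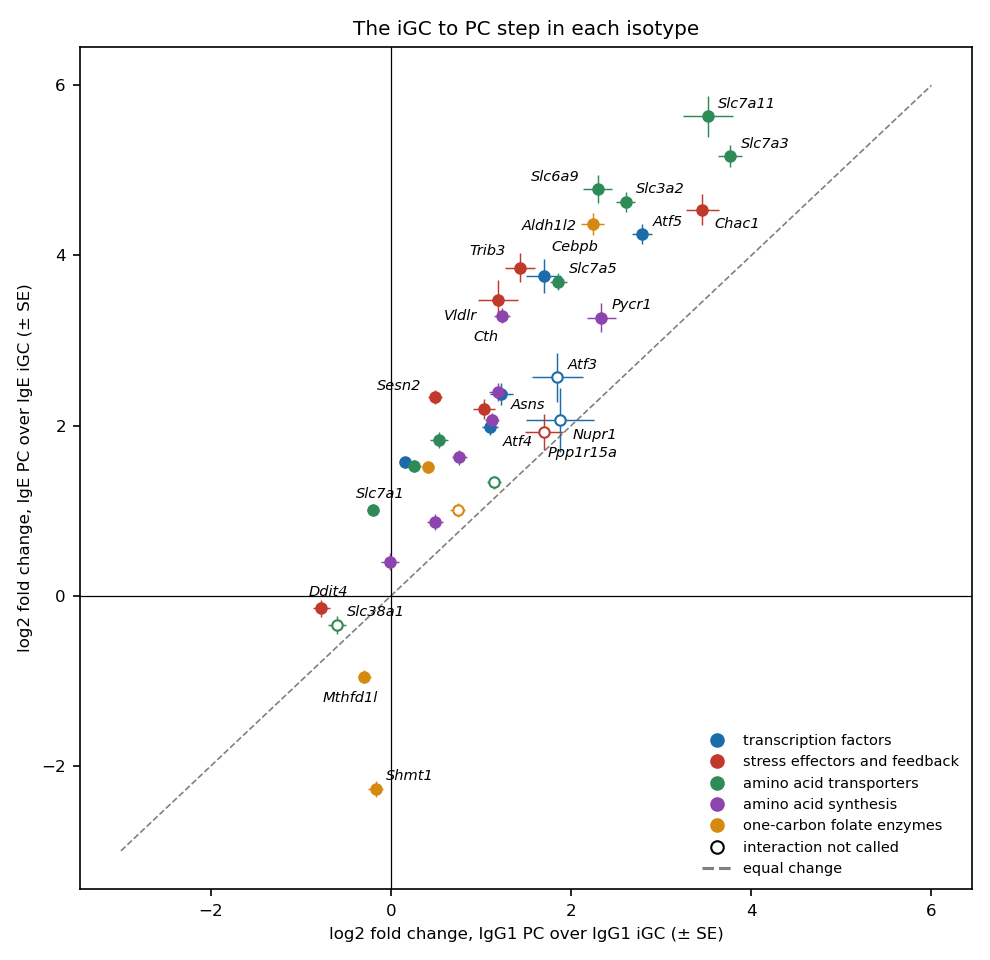
Log2 fold change from iGC to PC in IgE cells (vertical) against that in IgG1 cells (horizontal) for the 36 genes, with ± 1 SE and the line of equal change dashed; filled points had a called difference between the 2 steps. Most points lie above the line; Shmt1 lies below it, at -2.27 in IgE and -0.17 in IgG1 cells.

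The difference between the 2 steps, tested as an interaction in the same edgeR model, was called for 30 of the 36 genes, where 42.9% of all genes tested were called. The rise was larger in IgE cells, or the change turned further up, for 28, where 19.8% of all genes tested were called in that direction, and 2 went the other way, where 23.1% were. The median difference was 1.16 on the log2 scale for the 36 genes and -0.06 for all genes. This test uses the same PC libraries as the direct comparison of PC groups, and the 2 are not separate evidence. The largest positive differences were those of Slc6a9 (2.49 ± 0.22), Trib3 (2.43 ± 0.23), Vldlr (2.29 ± 0.32), Aldh1l2 (2.13 ± 0.18) and Slc7a11 (2.12 ± 0.43). Atf4 itself rose by 1.98 ± 0.09 in IgE and 1.10 ± 0.09 in IgG1 cells, a difference of 0.88 ± 0.12 with an adjusted p of 5.03e-05 (edgeR). No difference was called for Atf3, Slc1a5, Slc38a1, Shmt2, Ppp1r15a and Nupr1; that of Ppp1r15a was 0.23 ± 0.29 and that of Slc1a5 0.20 ± 0.11. Without 1 library 3 of these were called: Slc1a5 (0.31) without IgG1 PC replicate 1, Slc38a1 (0.36) without IgG1 PC replicate 2, and Shmt2 without IgE PC replicate 1 (0.33) or IgG1 PC replicate 1 (0.32).

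Some genes differed between the 2 steps in more than the size of a rise. Cebpg rose by 1.57 ± 0.07 in IgE cells and stood at 0.16 ± 0.07 in IgG1 cells, where it was not called with all libraries but was without IgG1 iGC replicate 1 (0.19) or IgG1 PC replicate 3 (0.20). Sesn2, Slc38a2, Slc1a4 and Mthfd2 rose by 2.34, 1.52, 1.83 and 1.51 in IgE cells and by 0.49, 0.26, 0.53 and 0.41 in IgG1 cells, and the IgG1 rises turned negative on the TPM scale (-0.12, -0.34, -0.04 and -0.19). Slc7a1 rose by 1.00 ± 0.07 in IgE cells and fell in IgG1 cells, with a log2 fold change of -0.20 ± 0.07 that lost its call without IgG1 iGC replicate 1 (adjusted p = 0.0623 by edgeR). Shmt1 fell in IgE cells, at -2.27 ± 0.09, and stood at -0.17 ± 0.08 in IgG1 cells, not called with all libraries but called lower without IgG1 PC replicate 2 (-0.22) or 3 (-0.24). Ddit4 fell in IgG1 cells, at -0.77 ± 0.10, and was not called in IgE cells, at -0.15 ± 0.10; without IgE iGC replicate 3 the IgE value was -0.26 and called lower (adjusted p = 0.0251 by edgeR). Psat1 changed by 0.40 ± 0.10 in IgE cells, a rise that turned to -0.07 with total-count scaling and -0.40 on the TPM scale, and by -0.01 ± 0.10 in IgG1 cells. Slc38a1 and Mthfd1l fell in both isotypes.

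After 2 days off the feeders most of these genes were lower in iGC than at day 6. In IgE iGC 28 of the 36 were called, where 69.1% of all genes tested were: 21 were lower and 7 higher, with 32.8% of all genes higher. In IgG1 iGC 30 were called, where 68.4% of all were: 25 were lower and 5 higher, with 32.4% of all higher. Lower in both kinds of iGC were 21 of the 36. The 2 comparisons share their day 6 libraries, and the share of all genes lower in both was not counted. The largest falls were those of Atf3, from 8.17, 11.3 and 11.5 CPM to 0.392 to 0.608 CPM, of Aldh1l2, from 34.9, 41.7 and 41.99 CPM to 2.26 to 3.56 CPM, and of Slc7a11, from 2.68, 3.60 and 4.11 CPM to 0.242 to 0.775 CPM. In IgE iGC the log2 fold changes were -4.32 ± 0.28, -3.63 ± 0.12 and -2.56 ± 0.26. Phgdh (-1.39 ± 0.08), Cth (-1.89 ± 0.09), Pycr1 (-2.05 ± 0.16), Atf5 (-2.19 ± 0.11) and Slc7a3 (-2.39 ± 0.13) were also at least 2-fold lower in IgE iGC. Higher in both kinds of iGC were Slc7a1, Slc1a4, Slc38a1, Mthfd2 and Ppp1r15a. In IgG1 iGC the Slc1a4 call was lost without any 1 day 6 library or IgG1 iGC replicate 3 (0.16). That of Slc38a1 was lost without any 1 day 6 library or IgG1 iGC replicate 1 (0.24) or 3 (0.28). Among genes lower in IgG1 iGC, Ddit4, Slc1a5 and Cebpb also lost their calls without some single libraries. Trib3 gained a lower call there without IgG1 iGC replicate 3 (-0.41). Ppp1r15a went from 27.1, 31.8 and 32.6 CPM at day 6 to 77.4, 76.6 and 70.7 CPM in IgE iGC and 60.5, 51.2 and 36.2 CPM in IgG1 iGC. The fibroblast markers given above were higher in the unsorted day 6 libraries than in iGC; their part in these falls was not tested.

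Against the same day 6 libraries, 34 genes were called in IgE PC, where 76.4% of all genes tested were: 30 were higher, with 36.9% of all genes higher, and 4 lower. In IgG1 PC 27 were called, where 71.9% of all were: 17 were higher, with 35.9% of all higher, and 10 lower. With total-count scaling the median of all genes moved from -0.04 to -0.57 for IgE PC and from 0.01 to -0.27 for IgG1 PC, and the counts became 25 higher and 8 lower for IgE PC and 14 higher and 16 lower for IgG1 PC. The shares of all genes called with that scaling are not reported here. The 2 comparisons share their day 6 samples, so their values are given side by side only. For Chac1 the log2 fold changes were 5.19 ± 0.19 in IgE PC and 3.52 ± 0.18 in IgG1 PC, for Slc3a2 3.93 ± 0.11 and 1.69 ± 0.10, and for Atf4 2.26 ± 0.09 and 1.21 ± 0.09. Asns was higher in IgE PC (1.43 ± 0.10) and not called in IgG1 PC (-0.05 ± 0.10), and Slc7a11 likewise (3.08 ± 0.19 and 0.02 ± 0.19). Cth, Phgdh and Aldh1l2 were higher in IgE PC, at 1.40, 0.24 and 0.73, and lower in IgG1 PC, at -0.80, -0.64 and -1.70; the IgE PC values of Phgdh and Aldh1l2 turned negative on the TPM scale (-0.65 and -0.11). Atf3, Ddit4, Shmt1 and Mthfd1l were lower than at day 6 in both kinds of PC.

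The other genes of the pathway were taken from 7 lists of 113 genes, also chosen with earlier results of these data known. Of these genes 103 were tested, and 56 were higher and 19 lower in IgE PC than in IgG1 PC. The shares of all genes tested to set beside these and the next counts are those given above, 27.4% higher, 30.7% lower and 3.83% at least 2-fold higher; a list count near them is no result about the list. Among 15 tested subunits and regulators of the eIF2 step, 7 were higher and 3 lower, with a median log2 fold change of 0.10. All 4 eIF2 kinases were called. Eif2ak3, which encodes PERK, the sensor in the endoplasmic reticulum, was at 206, 213 and 222 CPM in IgE PC, at 128, 117 and 117 CPM in IgG1 PC and at 66.4 to 86.7 CPM in iGC, a log2 difference of 0.83 ± 0.05 between PC groups. Eif2ak1, the haem-regulated kinase HRI, differed by 0.33 ± 0.04, and Eif2ak2, the double-stranded RNA sensor PKR, by 0.69 ± 0.09. Eif2ak4, which encodes GCN2, the sensor of uncharged tRNA, was the kinase that was lower in IgE PC, at 26.6, 26.5 and 27.8 CPM against 32.5, 34.97 and 36.3 CPM and 36.2 to 40.5 CPM in iGC, a difference of -0.36 ± 0.05. Ppp1r15b, the constitutive counterpart of GADD34, was higher by 0.62 ± 0.05, and Eif2s2, the beta subunit of eIF2, by 0.69 ± 0.07.

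Of the 20 cytosolic tRNA synthetases 18 were higher in IgE PC and none was lower, with a median of 0.70; Eprs1 (1.17 ± 0.05), Wars1 (1.12 ± 0.05), Nars1 (1.06 ± 0.07) and Sars1 (0.87 ± 0.06) had the smallest p. Among 14 tested of 15 other genes reported as ATF4 targets, 13 were higher, 11 of them at least 2-fold, and none was lower, with a median of 1.37. Nibans1, a regulator of translation under stress, was at 385, 371 and 405 CPM in IgE PC, at 75.5, 84.9 and 94.01 CPM in IgG1 PC and at 55.95 to 67.7 CPM in iGC, and Ero1a, an oxidase that drives disulfide formation, at 474, 457 and 539 CPM, 122, 135 and 121 CPM and 64.98 to 71.1 CPM. Their log2 differences were 2.19 ± 0.07 and 1.96 ± 0.08, and those of Xpot, which exports tRNA from the nucleus, and Jdp2, a repressor of the AP-1 family, were 1.58 ± 0.07 and 1.24 ± 0.06.

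The remaining lists were mixed. Of 12 tested of 20 other plasma membrane amino acid transporters, 2 were higher and 5 lower, with a median of -0.16. Slc36a1, a proton-coupled carrier also found on lysosomes, was higher (0.58 ± 0.08), Slc16a10 (-1.05 ± 0.16), a carrier of aromatic amino acids, and Slc7a7 (-0.42 ± 0.10), a light chain of CD98, were lower, and Slc1a2 was called lower with levels of only 0.42 to 0.626 CPM in IgG1 PC and at or near 0 in IgE PC. Other folate and glycine enzymes gave 4 higher and 5 lower of 18, with a median of -0.05. Tyms (-1.22 ± 0.07), thymidylate synthase, and the cytosolic folate enzyme Mthfd1 (-1.54 ± 0.08) were lower, as Shmt1 was. In glutathione, transsulfuration and other amino acid metabolism 7 of 12 were higher and 2 lower, with a median of 0.38. Bcat1, the cytosolic transaminase of branched-chain amino acids, was at 106, 109.8 and 129 CPM in IgE PC against 28.1, 30.5 and 29.7 CPM in IgG1 PC, a difference of 1.96 ± 0.08; Bcat2 (0.99 ± 0.09), its mitochondrial form, and Gclc (0.61 ± 0.05), the first enzyme of glutathione synthesis, were higher too. Glul, glutamine synthetase, was lower (-1.23 ± 0.10). Amino acid sensing above mTORC1 gave 5 higher and 4 lower of 12, with a median of 0.09: the Rag GTPases Rraga (0.58 ± 0.06) and Rragc (0.43 ± 0.07) were higher, and the arginine sensor Castor1 (-1.50 ± 0.16) and the GATOR1 subunit Depdc5 (-0.38 ± 0.06) lower.

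**Figure D5:**
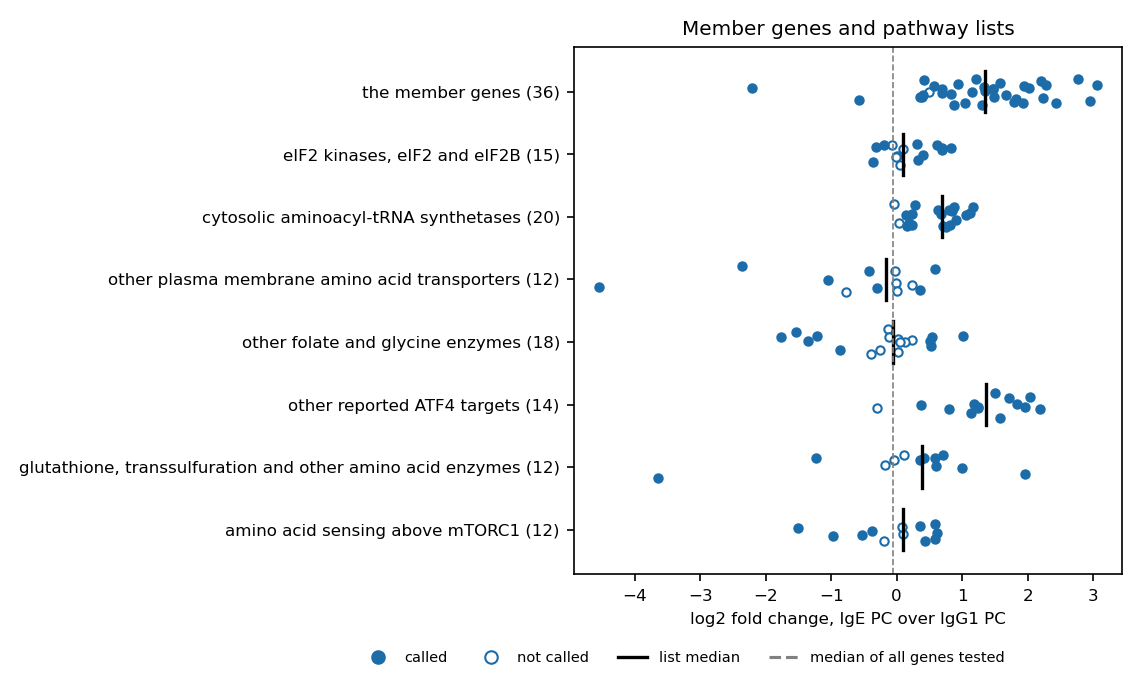
Log2 fold change in IgE PC over IgG1 PC for the 36 genes and for the tested genes of the 7 pathway lists; each point is a gene, open where not called, black bars are list medians and the dashed line is the median of all genes tested. Most points of the 36 genes (median 1.34), the other reported ATF4 targets (1.37) and the tRNA synthetases (0.70) lie to the right of the line, and the other lists have many on both sides.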

How the data were processed

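RNA-seq of 15 libraries in 5 groups was used. Per the labels' protocols, poly(A) RNA was made into KAPA mRNA HyperPrep libraries and sequenced as 76 bp single-end strand-specific reads. The submitters' processing notes name cutadapt 1.9.1, STAR 2.5.2a, RSEM 1.3.0, DESeq2 1.12.3 and build GRCm38; the annotation release and the strand setting of counting are not given in the sources used here. The deposited table holds, per the file headers, expected counts and TPM per gene and library, which the authors' software estimated, spreading reads shared by several genes.

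Expected counts were rounded, genes were kept by filterByExpr (minimum count 10, minimum total 15), libraries were scaled by TMM and edgeR 4.0.16 (R 4.3.3) fitted 1 mean per group over all 15 libraries (10 residual degrees of freedom), with quasi-likelihood tests of 9 contrasts and Benjamini-Hochberg adjustment over 15692 genes. SE is the log2 fold change over the square root of F. Symbols were given to 51633 gene IDs. Alternatives were total-count scaling, DESeq2 1.42.0, no filter, a replicate block, limma 3.58.1 on log2(TPM + 1), the compared groups only, and leaving out each library. Depth limits precision for genes under about 1 CPM.

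The members and lists were chosen with earlier results of these data known. By a rule, a member was given library by library where it was called and at least 2-fold changed, with groups apart, in 1 of the first 5 contrasts (31 genes, Atf4, Ddit3 and Ppp1r15a in any case); from each pathway list up to 4 called genes with the smallest p, and all eIF2 kinases, were named. Some list genes that this rule takes are not reported here. The genes shown in the plot of levels by library and those quoted in the iGC and day 6 comparisons were chosen after their values were seen. Promoters are RefSeq sequences of GRCm38.p6. Scripts were tested on simulated data.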

Additional observations from a re-analysis of the deposited data

Results flagged for a closer look

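IgE and IgG1 cells differed in how the iGC to PC step changed expression, by the interaction term of the edgeR model, for 30 of the 36 genes. Of all genes tested 42.9% were called by this term. Positive were 28 of the 36, where 19.8% of all genes were, and 2 were negative, where 23.1% were. Values are the IgE log2 change minus the IgG1 log2 change. Among transcription factors it was 0.88 for Atf4, 1.46 for Atf5, 1.15 for Ddit3, 2.06 for Cebpb and 1.41 for Cebpg. Effector and feedback genes gave 0.63 for Ddit4, 2.43 for Trib3, 1.08 for Chac1, 1.85 for Sesn2, 1.17 for Eif4ebp1 and 2.29 for Vldlr. Transporters gave 2.12 for Slc7a11, 2.49 for Slc6a9, 2.03 for Slc3a2, 1.83 for Slc7a5, 1.21 for Slc7a1, 1.41 for Slc7a3, 1.30 for Slc1a4 and 1.27 for Slc38a2. Enzymes of amino acid synthesis gave 1.20 for Asns, 0.41 for Psat1, 0.87 for Phgdh, 0.38 for Psph, 0.94 for Aldh18a1, 0.94 for Pycr1 and 2.06 for Cth. The one-carbon enzymes gave 1.10 for Mthfd2, 2.13 for Aldh1l2, -2.10 for Shmt1 and -0.65 for Mthfd1l. The Psat1 difference lost its call without IgE iGC replicate 1 (0.39) or 2 (0.38), IgE PC replicate 3 (0.32), IgG1 iGC replicate 3 (0.36) or IgG1 PC replicate 1 (0.31). That of Psph lost it without IgE iGC replicate 3 (0.35), IgE PC replicate 2 (0.37), IgG1 iGC replicate 2 (0.36) or 3 (0.34), or IgG1 PC replicate 2 (0.28). Ddit4 was not called with total-count scaling (0.38) or on the TPM scale (0.50).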

How the results depend on the processing

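For 8 of the 9 comparisons the number of the 36 genes called stayed within 1.5 times the reported one under all 6 alternative settings. Between the iGC isotypes, where edgeR called 0, total-count scaling, no filter and limma on TPM called 1 each, the replicate block 2, DESeq2 6 and the 2 groups alone 9, all higher in IgE; leaving out single libraries gave 0 to 0. A change of sign was counted only where the value was called in the reported fit or in the alternative. Over the 6 settings 1805 of 1944 gene values kept their call status with no such change, 53 lost a call, 56 gained one and 30 changed sign. Over 2160 values without 1 library, 46 lost a call, 17 gained one and 0 changed sign by that count. Total-count scaling moved the median of all genes from -0.05 to -0.30 between PC groups, from -0.08 to -0.55 for the IgE step, from 0.01 to -0.22 for the IgG1 step and from -0.06 to -0.30 for their difference, with 28 and 2, 31 and 4, 28 and 5, and 25 and 2 genes higher and lower. On the TPM scale the counts were 30 and 2, 29 and 5, 21 and 7, and 26 and 2, and for IgG1 PC against day 6 they were 10 and 22. The shares of all genes called with total-count scaling and on the TPM scale are not reported here, so these counts are not set against them. Between PC groups no sign changed by the same count. Calls lost were those of Atf3 (0.44 with total-count scaling, 0.34 on TPM, 0.67 with the 2 groups alone), Slc1a5, Slc38a1, Psat1, Psph and Shmt2. The 300-base window around the start gave 9 genes with each motif in place of 7 and 6. Trib3 and Slc1a4 were the genes added for the C/EBP-ATF motif. In that window this motif occurred at 25.7% of the starts of these genes and 3.97% of all starts. For the antioxidant motif the shares were 28.6% and 12.4%.

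Values that changed sign, and were called in the reported fit or in the alternative, were these, and the cause was not tested. In IgE PC over IgE iGC, Psat1 was at -0.073 with total-count scaling and -0.40 on TPM. In IgG1 PC over IgG1 iGC, on TPM, Sesn2 was at -0.12, Slc1a4 at -0.044, Slc38a2 at -0.34, Psph at -0.13 and Mthfd2 at -0.19. In IgE PC over day 6, with total-count scaling and TPM in turn, Slc38a1 was at -0.53 and -0.86, Psat1 at -0.18 and -0.53, Phgdh at -0.30 and -0.65, Psph at -0.28 and -0.61, and on TPM alone Shmt2 at -0.086 and Aldh1l2 at -0.11. In IgG1 PC over day 6 in the same order, Atf5 was at -0.053 and -0.51, Sesn2 at -0.20 and -0.64, Shmt2 at -0.00298 and -0.38 and Cebpg at -0.17 and -0.37, and on TPM alone Ddit3 was at -0.00421, Slc7a11 at -0.40, Slc7a1 at -0.67, Slc38a2 at -0.37 and Pycr1 at -0.50.

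Same-numbered libraries did not deviate together: the mean correlation of their deviations was -0.0146 over 10 pairs of groups, and no pair of groups had all 3 above 0.1, so these data gave no ground to pair them, and a shared animal or culture was not tested. With the replicate block 35 genes were called between PC groups, 35 in the IgE step, 34 in the IgG1 step, 31 in their difference, 2 between iGC groups and 29, 30, 34 and 27 in the comparisons of IgE iGC, IgG1 iGC, IgE PC and IgG1 PC with day 6. The shares of all genes called with the block are not reported here.

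Gating is not in the labels, PC groups differed in their summed fibroblast, plasma cell and B cell marker levels, and 3 replicates a group bound the precision. Low genes such as Atf3, Nupr1 and, in iGC, Slc7a11 rest on few counts.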
